A study of Homo sapiens with 23 samples.

Results

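The insulin-like growth factor (IGF) system was described at the mRNA level through 10 genes, comprising the 7 IGF-binding proteins IGFBP1 to IGFBP7 and the receptors IGF1R, IGF2R and INSR. They were taken by gene name from 61806 genes of a first count table and 42901 genes of a second, and all 10 passed the filter on low counts in every comparison. The family was chosen by the measured change of IGFBP5 with both shRNAs, so IGFBP5 in the shRNA comparisons is given below as a description, with no test and outside the counts of called genes. The study asked what THUMPD3, an RNA methyltransferase subunit, does in lung cancer cells, and measured rRNA-depleted RNA by directional RNA-seq. All libraries came from A549, an established human lung carcinoma epithelial line.

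In the first table, siTHUMPD3 (3 libraries) was cells transfected with an siRNA against THUMPD3, and siControl (2 libraries) was their control. The groups shD3#1 and shD3#4 (3 libraries each) carried different shRNAs against THUMPD3 in an integrated, doxycycline-inducible vector kept by puromycin selection, and were set against sh1Control and sh4Control (3 libraries each). The second table held libraries labelled deep sequencing, of sh1Control and shD3#1 only (3 libraries each). Whether they were made from the same RNA as the first libraries is not given in the sources used here. The methods call the control samples untreated, and whether the shRNA controls received doxycycline is not given in the sources used here, so effects of the shRNA and of the inducer cannot be told apart. Harvest times also differed between the siRNA and shRNA experiments. The labels give all controls as wild type for THUMPD3, and the shRNA cells were selected pools.

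IGF1 and IGF2 are secreted growth factors that signal through the receptor tyrosine kinase IGF1R and, for IGF2 and insulin, through INSR, to the PI3K-AKT and MAPK pathways. IGF2R has no kinase and carries IGF2 and mannose-6-phosphate-tagged enzymes to lysosomes. IGFBP1 to IGFBP6 bind IGFs with high affinity outside the cell and IGFBP7 binds them weakly, and proteases such as PAPPA free the ligand by cutting the binding proteins.

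The IGFBP genes lie partly in pairs. On GRCh38, IGFBP2 (chr2:216632828-216664436, plus strand) and IGFBP5 (chr2:216672105-216695549, minus strand) point towards each other with 7668 nt between their 3′ ends. IGFBP1 (chr7:45888360-45893660, plus strand) and IGFBP3 (chr7:45912245-45921874, minus strand) do the same across 18584 nt. The other members stand apart from one another: IGFBP4 on chromosome 17, IGFBP6 on 12, IGFBP7 on 4, IGF1R on 15, IGF2R on 6 and INSR on 19.

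Promoter sequence from RefSeq (GRCh38.p14) was matched for 8 of the 10 members, with IGFBP1 and IGFBP7 unmatched. The 250 bases before the transcription start are shown for IGFBP5, the gene behind the choice of the family, for IGFBP4, which fell in both sets of shD3#1 libraries, and for IGF2R, which rose with the siRNA. Capitals mark matches, on either strand, to TATTTAA or TATANA (TATA-like) or to CACGTG (an E-box). The windows are chr2:216695550-216695799 (minus strand) for IGFBP5, chr17:40443200-40443449 (plus strand) for IGFBP4 and chr6:159968832-159969081 (plus strand) for IGF2R.
IGFBP5: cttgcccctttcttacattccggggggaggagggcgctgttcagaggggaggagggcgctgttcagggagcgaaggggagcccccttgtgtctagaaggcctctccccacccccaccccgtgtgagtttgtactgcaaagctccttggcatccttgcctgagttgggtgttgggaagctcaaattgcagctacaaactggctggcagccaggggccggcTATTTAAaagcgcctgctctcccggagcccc
IGFBP4: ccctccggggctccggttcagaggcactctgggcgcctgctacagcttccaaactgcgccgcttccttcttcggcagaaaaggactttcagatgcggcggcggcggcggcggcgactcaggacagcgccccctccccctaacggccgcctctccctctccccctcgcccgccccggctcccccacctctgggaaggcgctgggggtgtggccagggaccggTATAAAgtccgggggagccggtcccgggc
IGF2R: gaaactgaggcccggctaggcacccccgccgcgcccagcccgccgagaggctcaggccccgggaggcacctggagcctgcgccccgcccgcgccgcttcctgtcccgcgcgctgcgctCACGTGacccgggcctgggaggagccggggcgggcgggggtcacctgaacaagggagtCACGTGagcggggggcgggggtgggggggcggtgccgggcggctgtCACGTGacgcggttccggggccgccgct

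The IGFBP5 window held TATTTAA 31 bases before the start, a run found in 4.17% of 35116 RefSeq windows of this length. IGFBP4 held TATANA, as TATAAA, 29 bases before it, and IGFBP3 held overlapping matches 32 and 30 bases before it (17.7% of windows have one). IGF2R held CACGTG at 3 places, 132, 74 and 28 bases before the start, and 6.34% of windows have at least 1. IGFBP6 held the FOXO-type run GTAAACA 186 bases before its start (2.98% of windows). The AP-1-type run TGANTCA (6.57% of windows) was found in none of the 8 members' windows. IGF1R, IGFBP2 and INSR held none of the 5 runs searched. The starts used here are those of RefSeq, while the gene spans given above are from GENCODE, and the 2 can differ. The IGFBP3 window (chr7:45921273-45921522) lay inside its GENCODE span. The IGFBP6 window (chr12:53097417-53097666) overlapped its GENCODE span, which begins at 53097436.

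Library totals ran from 9854294 to 22101059 counts in the first table and from 27285889 to 59974740 in the second. The 2 tables differed in more than depth. MT-RNR2 was the top gene of every first library, at 21.88% to 32.21% of its counts. COX1 was the top gene of every deep library, at 3.03% to 3.98%. No knockdown library reached its controls in THUMPD3 itself, with log2 fold changes of -0.97 ± 0.07 (SE) with shD3#1, -1.67 ± 0.07 with shD3#4, -2.54 ± 0.10 with siTHUMPD3 and -1.01 ± 0.06 in the deep libraries. Replicate 3 of siTHUMPD3 stood apart from the other 2 (chi-square per degree of freedom 30.4 and 34.6, against 3.76 between those 2), and the changes it carried most are given with and without it. Summed epithelial and A549 markers lay between 10100 and 18600 cpm (reads of a gene scaled to a common library total by TMM), with all 9 markers present in each group. Fibroblast markers summed to 4.77 to 29.7 cpm (DCN at 0 in 6 of the 8 groups) and endothelial markers to at most 2.18 cpm. Only 3 of the 6 fibroblast markers were tested in each comparison, and they did not all move alike. LUM was called higher in all 4 comparisons and COL1A1 in both sets of shD3#1, while THY1 was called lower in the deep libraries. The fibroblast sum was higher in every knockdown library than in its controls. It went from 10.5 to 11.5 cpm in the deep controls to 27.4 to 29.7 cpm in the deep knockdowns, from 7.08 to 8.92 in sh1Control to 10.7 to 12.2 in shD3#1, from 6.23 to 9.68 in sh4Control to 10.8 to 13.9 in shD3#4, and from 4.77 to 6.20 in siControl to 8.14 to 10.0 in siTHUMPD3. The endothelial sum was 0.141 to 0.341 cpm in siControl and 1.75 to 2.18 cpm in siTHUMPD3. It was 0.419 to 0.483 cpm in sh4Control and 1.1 to 1.71 cpm in shD3#4. With shD3#1 the ranges overlapped, at 0.358 to 1.02 cpm in sh1Control and 0.389 to 0.467 cpm in shD3#1. They also overlapped in the deep libraries (0.53 to 0.72 and 0.713 to 1.37 cpm). The part of these markers in the changes given below was not tested.

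IGFBP5 was the member with the largest rise in the shRNA lines, and a scarce mRNA in the controls. It is the most conserved of the binding proteins and is held in extracellular matrix. In the 3 sh1Control libraries it stood at 3.84, 3.57 and 4.13 cpm, and in the shD3#1 libraries at 29.7, 31.3 and 23.7 cpm. The sh4Control libraries held 3.11, 3.39 and 4.40 cpm and the shD3#4 libraries 15.2, 13.7 and 14.4 cpm. Every shRNA knockdown library was above every control, and shD3#1 was above shD3#4 throughout. The log2 fold changes were 2.90 ± 0.12 (SE) with shD3#1 and 1.99 ± 0.12 with shD3#4. In the deep libraries, normalised on their own, the controls were at 2.33, 1.49 and 2.21 cpm and the knockdowns at 57.1, 41.5 and 54.8 cpm, a log2 fold change of 4.68 ± 0.14.

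With the siRNA, which the choice of genes did not use, IGFBP5 was much scarcer and its rise did not pass the test. The siControl libraries gave 0.568 and 0.352 cpm (10 and 5 counts) and the siTHUMPD3 libraries 1.94, 2.08 and 0.449 cpm (41, 36 and 9 counts). The first 2 knockdown libraries were above both controls and replicate 3 lay between the controls. The log2 fold change was 1.68 ± 0.69, adjusted p = 0.099 by edgeR's quasi-likelihood test, and without replicate 3 it was 2.10 and called (adjusted p = 0.00138). It was also called with a filter of at least 1 count (1.65, edgeR adjusted p = 0.0012). A joint fit of all 17 libraries gave 1.66. Its spread was estimated partly from the shRNA libraries that led to the choice of genes, so its test is not counted here.

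IGFBP4, the main substrate of PAPPA, fell in both sets of shD3#1 libraries. It stood at 444, 421 and 384 cpm in sh1Control and at 130, 135 and 78.8 cpm in shD3#1, with no overlap (log2 fold change -1.84 ± 0.13, edgeR adjusted p = 1.05e-08). The deep libraries gave 1440, 1410 and 1390 cpm in the controls and 669, 652 and 633 cpm in the knockdowns (-1.09 ± 0.04, adjusted p = 4.95e-11). The lowest of the first knockdown libraries was replicate 3, also the shallowest. In shD3#4 IGFBP4 stayed close to its control, at 386, 374 and 363 cpm against 409, 394 and 442 (-0.14 ± 0.07, adjusted p = 0.0908). In siTHUMPD3 it was 183, 173 and 177 cpm against 224 and 247, a separated but smaller difference of -0.37 ± 0.09 (edgeR adjusted p = 0.0184) that did not reach 1.5-fold. The siControl level was itself lower than in the shRNA controls by a log2 difference of -0.82 ± 0.13 (adjusted p = 0.000138).

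IGFBP3, which carries most IGF in blood and was among the most abundant members here, went opposite ways with the 2 shRNAs. The sh1Control libraries were at 520, 502 and 492 cpm and the shD3#1 libraries at 219, 226 and 227 cpm, all of them lower (log2 fold change -1.16 ± 0.06, edgeR adjusted p = 1.55e-10). The sh4Control libraries were at 475, 479 and 511 cpm and the shD3#4 libraries at 619, 734 and 674 cpm, all of them higher (0.47 ± 0.07, adjusted p = 8.61e-06), although under 1.5-fold. The deep libraries of shD3#1 did not show the fall. There IGFBP3 was 214, 189 and 224 cpm in the controls and 248, 232 and 232 cpm in the knockdowns, a small difference upwards without overlap (0.21 ± 0.05, adjusted p = 0.00366). The 2 tables were normalised and tested separately, and the difference between them was not tested. In siTHUMPD3 replicates 1 and 2 (410 and 408 cpm) lay between the controls (524 and 383 cpm) and replicate 3 below both (233 cpm), and IGFBP3 was not called (-0.34 ± 0.24, adjusted p = 0.323, and -0.12 without replicate 3).

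IGFBP1, an insulin-repressed, FOXO-responsive binding protein best known from liver, fell with shD3#1. It was 7.47, 9.68 and 8.22 cpm in sh1Control and 2.05, 2.49 and 1.27 cpm in shD3#1 (log2 fold change -2.03 ± 0.19, edgeR adjusted p = 1.71e-07), and 34.2, 35.4 and 33.7 against 18.6, 18.3 and 17.8 cpm in the deep libraries (-0.89 ± 0.06, adjusted p = 3.9e-09). In both sets the groups were fully separated. With shD3#4 the libraries overlapped their controls (9.42, 8.26 and 6.91 against 8.91, 8.29 and 9.16 cpm, -0.09 ± 0.12). With the siRNA the knockdowns gave 14.0, 13.4 and 11.6 cpm and the controls 11.7 and 6.41 cpm (0.55 ± 0.23, edgeR adjusted p = 0.108). It was called without siControl replicate 1 (1.03, adjusted p = 0.0205) and without siTHUMPD3 replicate 3 (0.61, adjusted p = 0.0455).

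IGFBP6 prefers IGF2 to IGF1. It rose with shD3#1 in the first libraries, from 47.2, 43.9 and 44.8 cpm to 78.8, 78.3 and 76.4 cpm (log2 fold change 0.80 ± 0.06, edgeR adjusted p = 3e-08). The deep libraries of the same shRNA showed the reverse at a smaller size, from 78.2, 77.1 and 73.0 cpm to 57.3, 59.7 and 62.0 cpm (-0.32 ± 0.05, adjusted p = 5.48e-05). Neither set had overlapping groups, and the difference in direction between the sets was not tested. It was lower with shD3#4 at 29.5, 34.5 and 35.6 against 43.2, 45.5 and 48.9 cpm (-0.46 ± 0.08, adjusted p = 2.87e-05) and higher with the siRNA at 77.7, 76.3 and 65.9 against 53.4 and 52.8 cpm (0.50 ± 0.10, edgeR adjusted p = 0.00739). Neither of these reached 1.5-fold.

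IGFBP7, a secreted protein of basement membranes with weak IGF affinity, rose with the siRNA. Its level was 40.1 and 51.8 cpm in siControl and 105, 106 and 93.2 cpm in siTHUMPD3, all clear of the controls (log2 fold change 1.17 ± 0.13, edgeR adjusted p = 0.000566). With shD3#1 the first libraries overlapped (46.1, 45.1 and 42.7 against 45.9, 42.9 and 41.5 cpm, 0.06 ± 0.07), whereas the deep ones rose from 19.9, 18.2 and 19.1 cpm to 36.4, 33.1 and 37.3 cpm (0.93 ± 0.06, adjusted p = 6.74e-09). With shD3#4 it was slightly lower, at 33.4, 37.4 and 29.5 against 42.0, 43.7 and 44.8 cpm (-0.37 ± 0.08, edgeR adjusted p = 0.000292), under 1.5-fold. IGFBP7 overlaps POLR2B on the other strand, and the strand setting of the counting is not given in the sources used here. POLR2B held 1486 to 3089 counts per library of the first table and its log2 fold changes lay between -0.14 and -0.08 in the 4 comparisons.

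IGFBP2, the neighbour of IGFBP5, passed the 1.5-fold threshold in no comparison. Its values were 52.1, 52.7 and 53.6 cpm in sh1Control and 41.4, 35.6 and 41.6 cpm in shD3#1 (log2 fold change -0.41 ± 0.07, edgeR adjusted p = 0.000185). The deep libraries gave -0.35 ± 0.08 (adjusted p = 0.000873), shD3#4 gave 0.08 ± 0.07 and siTHUMPD3 -0.22 ± 0.13. Its libraries lay below their controls in both sets of shD3#1 and overlapped them with shD3#4 and the siRNA.

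**Figure D1:**
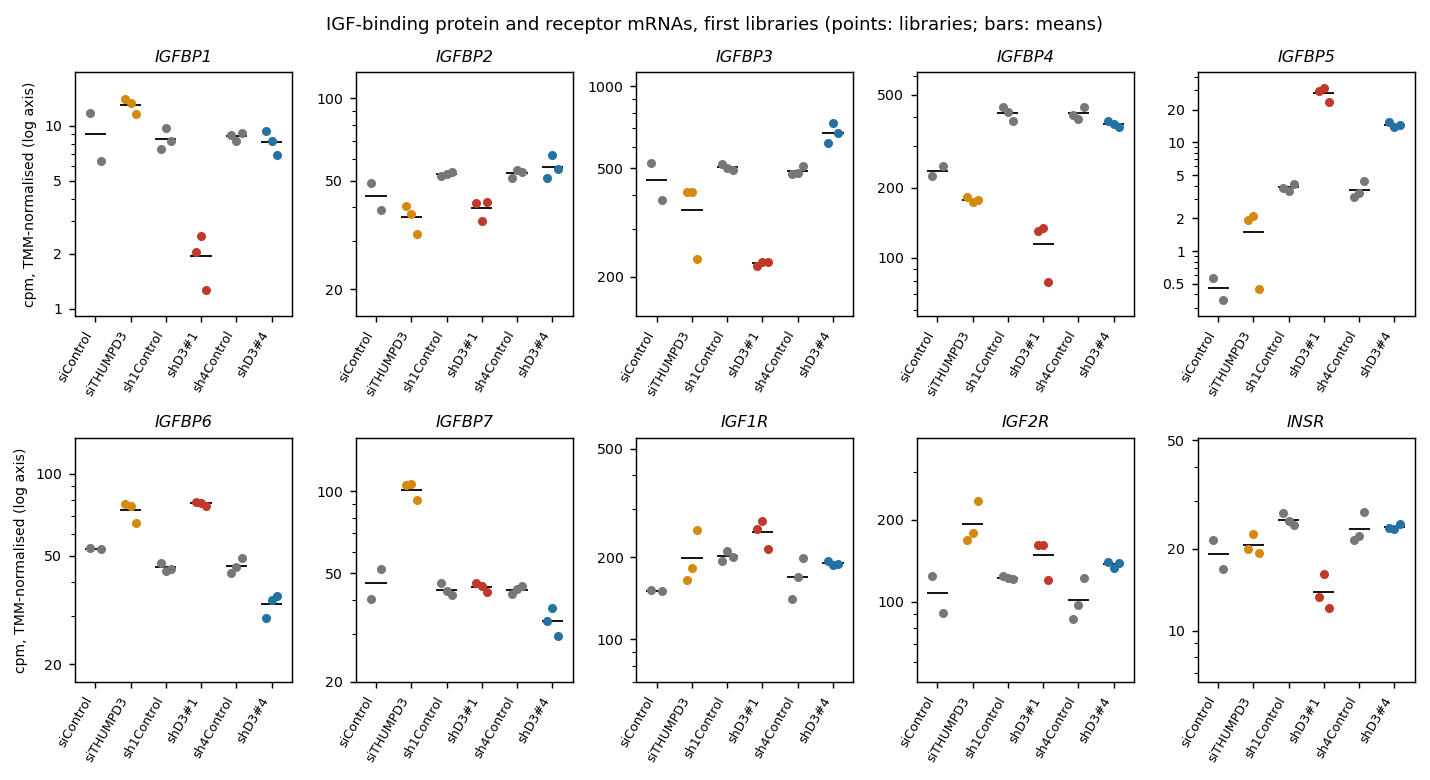
Each panel plots 1 of the 10 mRNAs in the first libraries, in TMM-normalised cpm on a log axis, with a point per library and a bar at the group mean (2 siControl libraries, 3 in each other group). IGFBP5 shows all shD3#1 and shD3#4 points above their controls, IGFBP4 and IGFBP1 sit lower in shD3#1 than in sh1Control, and 1 siTHUMPD3 point of IGFBP5 sits among its controls.

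Apart from IGFBP5, more members were called with shD3#1 than with the other knockdowns. A gene was called when its Benjamini-Hochberg adjusted p was under 0.05 over all genes tested and it differed by at least 1.5-fold. With shD3#1, 1 of 9 members was called higher (IGFBP6) where 14.5% of all genes were, and 4 of 9 lower (IGFBP1, IGFBP3, IGFBP4 and INSR) where 14.6% were. In the deep libraries 1 of 9 was called higher (IGFBP7, background 15.0%) and 3 of 9 lower (IGFBP1, IGFBP4 and INSR, background 14.1%). With shD3#4 edgeR called 0 of 9 members higher (background 8.00%) and 0 lower (background 4.50%), and DESeq2 also called 0. There 6 of 9 had an unadjusted edgeR p under 0.05, as did 7928 of all 16493 genes tested. With the siRNA 2 of 10 were called, both higher (IGFBP7 and IGF2R, background 12.5%, and 22.0% in either direction), and none lower.

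At any size of change, 8 of 9 members passed the adjusted p with shD3#1, where 56.5% of all genes did. The corresponding counts were 4 of 9 with shD3#4 (40.8%), 4 of 10 with the siRNA (33.0%) and 8 of 9 in the deep libraries (62.6%). The knockdown libraries lay clear of the controls for 7 of 9 members with shD3#1 (all genes 62.0%), 5 of 9 with shD3#4 (49.0%), 5 of 10 with the siRNA (59.8%) and 8 of 9 in the deep set (67.4%). The median log2 fold change of the 9 members was -0.41, 0.03, 0.44 and -0.32 with shD3#1, shD3#4, the siRNA and the deep set, beside -0.01, 0.01, 0.03 and -0.02 over all genes.

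The mRNA pool of the 7 binding proteins was compared per length, as the sum of cpm per kilobase of transcript. It was 504 ± 20.9 (SD, n = 3) in sh1Control and 285 ± 15.2 (n = 3) in shD3#1, and 864 ± 14.6 (n = 3) against 515 ± 12.5 (n = 3) in the deep libraries. The ranges did not overlap in either set. It was 498 ± 22.6 (n = 3) in sh4Control against 534 ± 27.3 (n = 3) in shD3#4, and 406 ± 32.9 (n = 2) in siControl against 398 ± 54.8 (n = 3) in siTHUMPD3, with overlapping ranges in both. No test was made of this sum. Most of it was IGFBP3 and IGFBP4, at 38.4% and 37.4% of the pool in sh1Control, while IGFBP5 made up 0.123% there and 1.58% in shD3#1. IGFBP6 went from 9.50% to 28.9% of the pool between these groups. In the deep libraries its share went from 9.30% to 12.3%, while its own level was lower in the knockdowns. In the deep controls IGFBP4 alone made up 74.2%.

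Ordered per length, IGFBP4 and IGFBP3 led in both shRNA control groups with overlapping ranges (189 and 193 cpm per kilobase in sh1Control), followed by IGFBP6 (47.8), IGFBP2 (37.4), IGFBP7 (30.4), IGF1R (16.5), IGF2R (8.70), IGFBP1 (5.59), INSR (2.70) and IGFBP5 (0.617). From IGFBP4 down, no neighbours in that order overlapped in sh1Control. In shD3#1 IGFBP5 (4.53) passed INSR (1.46) and IGFBP1 (1.28), and IGFBP6 (82.2) came next to IGFBP3 (85.7) without overlapping it. In siControl IGFBP3 led alone (174) ahead of IGFBP4 (107), and IGFBP7 (32.2) and IGFBP2 (31.0) overlapped. The deep controls differed from the first ones in order, with IGF1R (76.2) overlapping IGFBP3 (80.0), and levels of the 2 tables were not compared by a test.

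Of the receptors, INSR and IGF2R were each called in at least 1 comparison. INSR, the insulin receptor, fell with shD3#1 from 27.0, 25.3 and 24.4 cpm to 13.3, 16.1 and 12.1 cpm (log2 fold change -0.85 ± 0.10, edgeR adjusted p = 1.88e-06) and in the deep libraries from 58.7, 56.6 and 57.0 cpm to 36.2, 31.3 and 31.7 cpm (-0.77 ± 0.06, adjusted p = 3.26e-08). The groups were separated in both sets. With shD3#4 INSR was 23.9, 23.6 and 24.6 cpm against 21.6, 22.2 and 27.3 (0.03 ± 0.09), and with the siRNA 20.0, 22.7 and 19.3 cpm against 21.6 and 16.8 (0.14 ± 0.14). These overlapped.

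IGF2R rose with the siRNA, from 124 and 91.1 cpm to 168, 178 and 234 cpm (log2 fold change 0.88 ± 0.18, edgeR adjusted p = 0.00765). Without siTHUMPD3 replicate 3, the highest library, it was 0.71 and still called (adjusted p = 0.00117), and without siControl replicate 2, the lower control, the call was lost (0.68). The shD3#4 libraries were at 140, 133 and 139 cpm against 86.2, 96.9 and 122 cpm (0.44 ± 0.09, adjusted p = 0.00022), short of 1.5-fold. Without sh4Control replicate 3, the highest control, IGF2R was called there too. Apart from IGFBP5, IGF2R was the only member called with shD3#4 in any fit with a library left out. With shD3#1 it was 162, 162 and 120 cpm against 124, 122 and 121 (0.30 ± 0.09), where replicate 3 was at the control level, and 0.22 ± 0.04 in the deep libraries. All 4 values were above 0.

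IGF1R, the receptor through which both IGFs signal, was called in no comparison. Its levels were 193, 211 and 200 cpm in sh1Control and 253, 272 and 215 cpm in shD3#1 (log2 fold change 0.31 ± 0.07, edgeR adjusted p = 0.00201). The deep libraries gave 943, 932 and 921 against 949, 908 and 924 cpm (0.02 ± 0.04), with overlapping groups. The values were 0.18 ± 0.09 with shD3#4 and 0.44 ± 0.17 with the siRNA, where replicate 3 was highest and the value without it was 0.23.

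**Figure D2:**
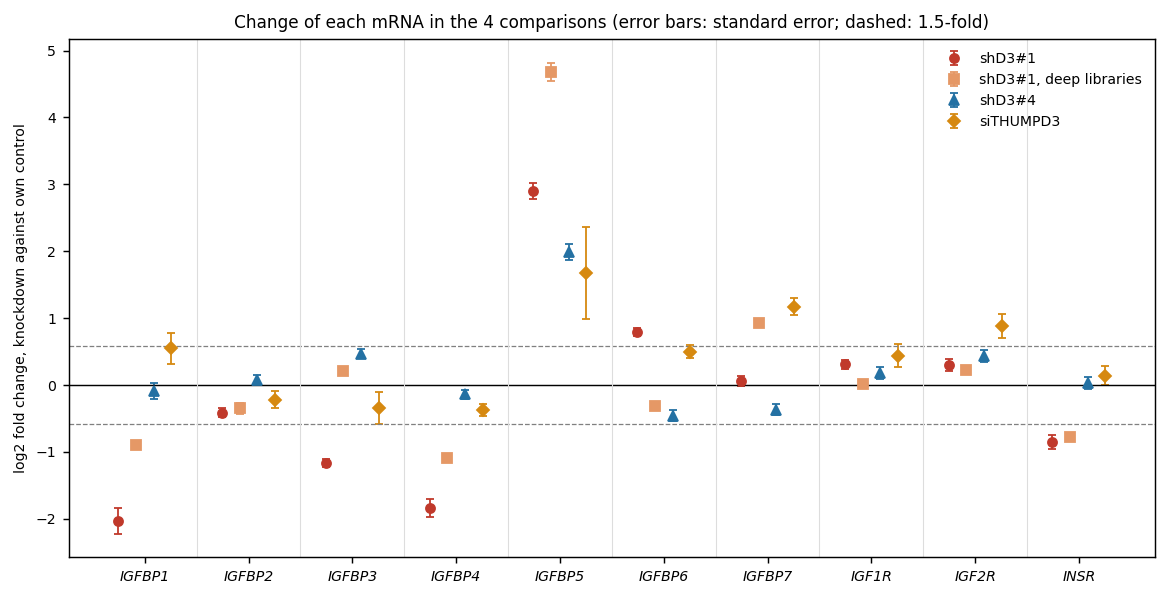
Log2 fold change of each of the 10 mRNAs against its own control in the 4 comparisons, with bars of 1 standard error and dashed lines at 1.5-fold. IGFBP5 is positive throughout (1.68 to 4.68), while IGFBP3, IGFBP6 and IGFBP7 differ between the first and the deep libraries of shD3#1.

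**Figure D3:**
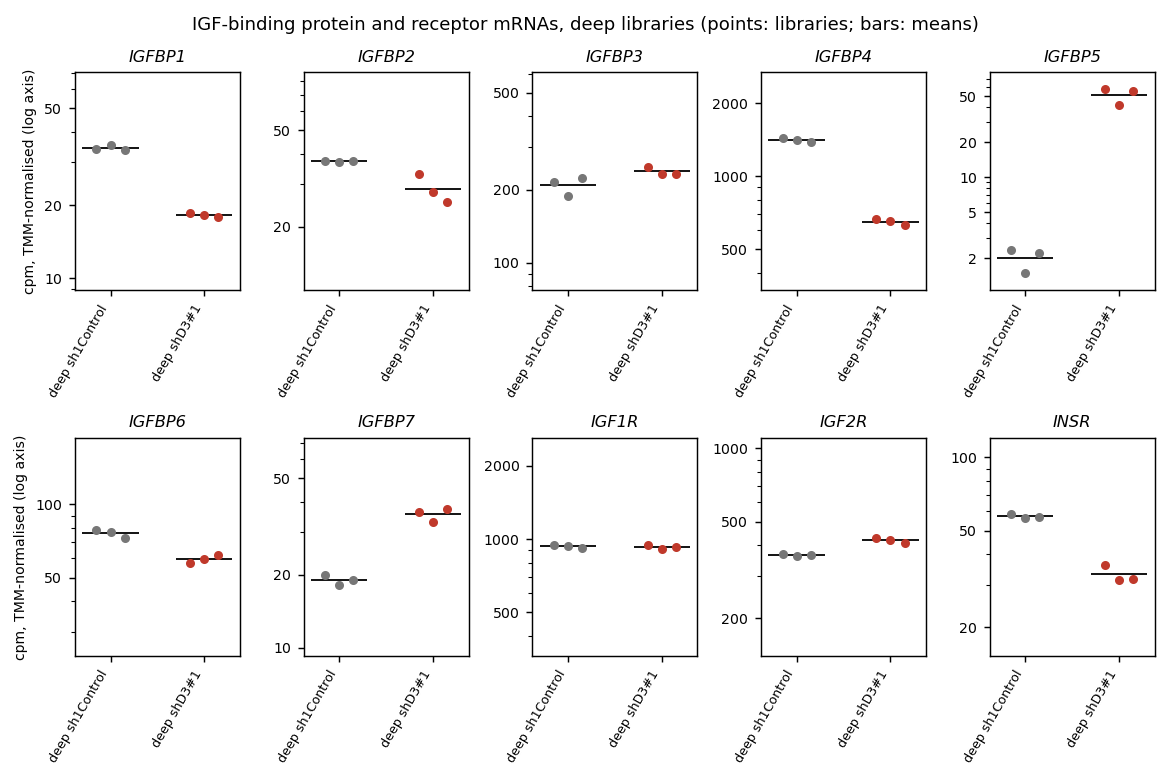
The same 10 mRNAs in the 3 deep sh1Control and 3 deep shD3#1 libraries, in TMM-normalised cpm on a log axis, with a point per library and a bar at the mean. IGFBP1, IGFBP4 and INSR fall, IGFBP5 and IGFBP7 rise, and IGF1R overlaps between the groups.

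Whether the 3 knockdowns differed in their effects was tested with an interaction term over the 17 first libraries. It was called for 8 of 9 members, where 52.4% of all genes were called, and IGF1R was the exception (edgeR adjusted p = 0.448). For this term a call rests on the adjusted p alone, with no fold threshold. The shD3#4 effect exceeded the shD3#1 effect for IGFBP1 by 1.95 ± 0.29, for IGFBP4 by 1.70 ± 0.17, for IGFBP3 by 1.63 ± 0.21 and for INSR by 0.88 ± 0.16 on the log2 scale (4 of 9 called higher, background 13.8%). For IGFBP6 it was lower by -1.26 ± 0.11 (1 of 9, background 12.1%, and 25.9% in either direction). The siTHUMPD3 effect exceeded the mean shRNA effect for IGFBP1 (1.62 ± 0.24), IGFBP7 (1.35 ± 0.12) and IGFBP4 (0.63 ± 0.16), which made 3 of 9 (background 9.43%, and 7.12% for a lower effect, where edgeR called no member).

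The control groups themselves were set side by side. Between sh4Control and sh1Control edgeR called 0 of 18672 genes (0.00%), as did DESeq2, while 2576 genes had an unadjusted p under 0.05. SiControl differed from the mean of the shRNA controls for 1 of 9 members, IGFBP4, which was lower (background 3.88%, against 3.38% higher and 7.27% in either direction). IGFBP5, left out of this count because its shRNA control values entered the choice of genes, differed by -2.98 ± 0.41. Transfection, vector and harvest time cannot be told apart in this comparison.

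Among the ligands, IGF2 appeared with shD3#1. The sh1Control libraries held 5, 4 and 6 counts (0.256, 0.227 and 0.299 cpm) and the shD3#1 libraries 196, 254 and 119 counts (13.0, 13.2 and 11.6 cpm), a log2 fold change of 5.57 ± 0.20 (edgeR adjusted p = 5.22e-12). The deep libraries went from 16, 6 and 18 counts to 650, 609 and 789 (6.47 ± 0.15, adjusted p = 2.27e-13). The knockdown libraries of this one shRNA were far above all others. With shD3#4 there were 0, 3 and 1 counts against 5, 5 and 3, and with the siRNA 7, 7 and 9 against 2 and 3, both under the filter on low counts and not tested singly. The interaction term over the first libraries was called for IGF2 (adjusted p = 1.44e-07). IGF2-AS, an antisense transcript at that locus, had 8, 15 and 4 counts in shD3#1 and at most 2 in any other library of the first table, and without a stated counting strand the 2 cannot be fully separated.

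IGF1 had 16, 14 and 6 counts in shD3#4 against 4, 2 and 2 in sh4Control, and 1 to 5 in the other libraries of the first table. It was under the filter on low counts and not tested singly. INS was at 0 counts in all 23 libraries, which allows at most 3 counts per library. IGFALS, the acid-labile subunit of the serum complex, was at 0 to 8 counts in the first table.

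IGFBP proteases and their inhibitors rose more often than they fell. This list and those below were chosen with earlier results of these data known, so their counts are a description of the listed genes. Of 17 listed genes, 14 were tested with shD3#1, where 9 were called higher and 1 lower. The counts were 6 higher and 1 lower of 13 with shD3#4, 9 higher and 0 lower of 15 with the siRNA (no member of the list was called lower by edgeR there), and 6 higher and 2 lower of 14 in the deep libraries. Of all genes, 14.5%, 8.00%, 12.5% and 15.0% were called higher and 14.6%, 4.50%, 9.42% and 14.1% lower in the same order. The median log2 fold changes were 0.77, 0.52, 1.25 and 0.40, beside -0.01, 0.01, 0.03 and -0.02 over all genes.

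PAPPA, which cuts IGFBP2, IGFBP4 and IGFBP5, rose in all 4 comparisons. It was 182, 189 and 179 cpm in sh1Control and 445, 455 and 448 cpm in shD3#1 (log2 fold change 1.31 ± 0.06). It went from 151, 157 and 168 to 256, 264 and 263 cpm with shD3#4 (0.73 ± 0.06), and from 206 and 232 to 502, 517 and 693 cpm with the siRNA (1.42 ± 0.17). STC1, a secreted inhibitor of PAPPA, rose alongside it by 1.63 ± 0.08, 1.12 ± 0.08 and 2.22 ± 0.20 in the same order. In each case every knockdown library was above every control, and edgeR adjusted p values ran up to 0.00067. Being called higher in all 3 first comparisons was a property of 1.02% of the genes tested. PAPPA and STC1 were named because they were called the same way in at least 2 of these comparisons, so that share is background only.

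STC2, the other PAPPA-inhibiting stanniocalcin, split instead. It rose with shD3#1 (0.85 ± 0.07), fell with shD3#4 (-1.55 ± 0.10) and was at 26.1, 26.1 and 64.3 cpm in siTHUMPD3 against 26.2 and 26.2 cpm, where replicate 3 alone was high (0.61 ± 0.39, and 0.02 without it). C1S, a complement protease that also cuts IGFBP5, fell with shD3#1 (-1.81 ± 0.07, and -1.85 ± 0.06 deep) and rose with shD3#4 (1.41 ± 0.08) and the siRNA (1.85 ± 0.16). Genes called in opposite directions in 2 of the first comparisons made up 3.54% of those tested. STC2 and C1S were named by their changes in these same comparisons, so this share, too, is background only.

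The other named members of this list moved in some comparisons. ADAM12 was called higher with shD3#1 (0.86 ± 0.08) and shD3#4 (1.07 ± 0.08), and ADAM28 with the same 2 (1.19 ± 0.18 and 1.17 ± 0.16). CTSD, a lysosomal protease and IGF2R cargo, was called higher with shD3#4 (0.76 ± 0.08) and the siRNA (0.62 ± 0.15). MMP2 rose with shD3#1 (0.62 ± 0.17) and the siRNA (2.95 ± 0.55), where replicate 3 (19.5 cpm) was above replicates 1 and 2 (8.18 and 9.46 cpm) and the value without it was 2.46, and fell in the deep libraries (-0.88 ± 0.13). MMP1 had 0 or 1 count per control library of the first table, while shD3#1 held 34, 37 and 31 counts and siTHUMPD3 20, 16 and 62. The shD3#4 libraries held 4, 1 and 0. The deep libraries held 1, 1 and 2 counts in the controls and 16, 8 and 22 in the knockdowns.

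**Figure D4:**
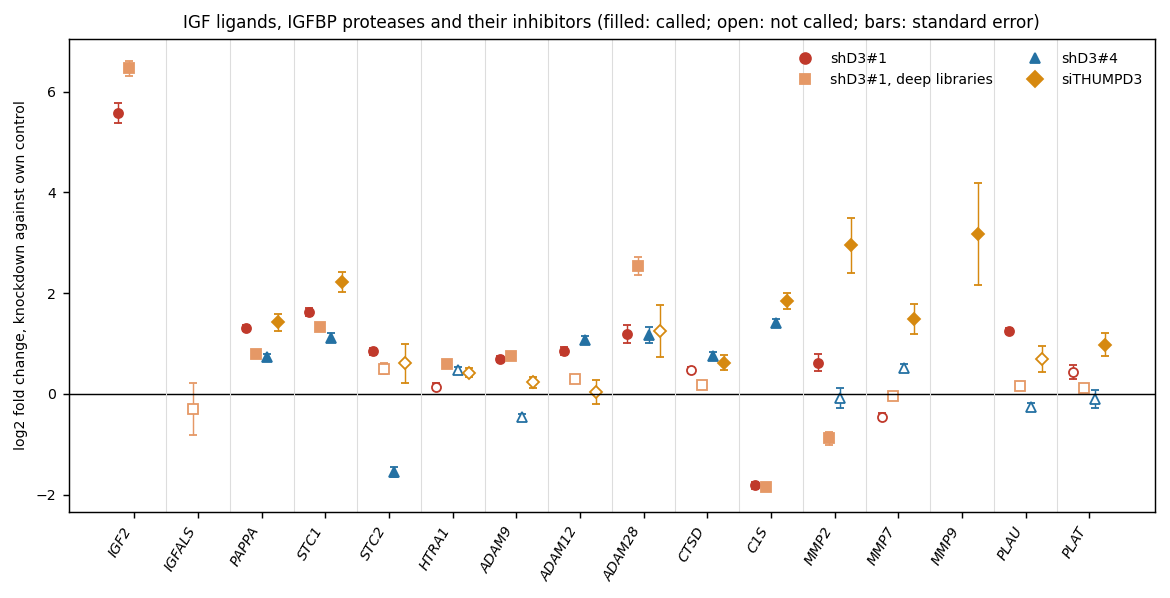
Log2 fold change with 1 standard error for the tested IGF ligands and carrier, IGFBP proteases and their inhibitors in the 4 comparisons, filled where called. Comparisons in which all libraries of a group held 3 counts or fewer are not drawn. PAPPA and STC1 are filled and positive in all 4, STC2 and C1S point both ways, and IGF2 stands at 5.57 and 6.47 with shD3#1.

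Of 37 signalling genes below the receptors, 35 were tested in each first comparison and 36 in the deep libraries. With shD3#1 edgeR called 4 higher and 0 lower (all genes 14.5% and 14.6%), with shD3#4 3 and 2 (8.00% and 4.50%), with the siRNA 5 and 3 (12.5% and 9.42%) and in the deep libraries 5 and 0 (15.0% and 14.1%). Their median log2 fold changes were 0.04, 0.01, 0.04 and 0.07, beside -0.01, 0.01, 0.03 and -0.02 over all genes. GRB10, an adaptor that binds and restrains INSR and IGF1R, rose with shD3#1 (0.96 ± 0.07, and 0.74 ± 0.04 deep) and gave -0.16 ± 0.07 with shD3#4. PTPN1, a phosphatase of the insulin receptor, rose with shD3#1 (0.63 ± 0.08) and the siRNA (0.61 ± 0.10). PIK3R3, a PI3K regulatory subunit, rose with shD3#4 (1.08 ± 0.12) and the siRNA (1.47 ± 0.29). EIF4EBP1, the translation repressor phosphorylated by mTORC1, rose with shD3#1 in the first libraries (0.63 ± 0.10). It fell with shD3#4 (-0.62 ± 0.09) and the siRNA (-0.75 ± 0.11). The deep libraries of shD3#1 did not show its rise, with 26.1, 27.7 and 26.6 cpm against 28.3, 27.4 and 25.9 cpm in the controls. Neither EIF4EBP1 nor PTPN1 was called there.

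FOXO target genes, which AKT signalling normally holds down and among which IGFBP1 and INSR are counted in other cells, were called higher in 6 of 13 tested with shD3#1 (2 lower), 6 of 13 with shD3#4, 8 of 13 with the siRNA and 6 of 14 in the deep libraries (1 lower). Of all genes 14.5%, 8.00%, 12.5% and 15.0% were called higher in the same order, and 14.6%, 4.50%, 9.42% and 14.1% lower. The target list, too, was chosen with earlier results of these data known. The targets called lower were CDKN1B and ERBB3 with shD3#1 and ERBB3 in the deep libraries. With shD3#4 ERBB3 was called higher. The median log2 fold changes of the tested targets were 0.35, 0.58, 1.19 and 0.35, beside -0.01, 0.01, 0.03 and -0.02 over all genes. PIK3IP1, an inhibitor of PI3K, was called higher in all of them (1.64 ± 0.26, 1.53 ± 0.26, 3.43 ± 0.31 and 1.30 ± 0.17), and CCNG2 in the 3 first comparisons (0.68 ± 0.14, 0.64 ± 0.11 and 1.33 ± 0.17). SESN1, GADD45A, CITED2 and TRIB1 were called higher with shD3#1 (1.43 ± 0.09, 1.42 ± 0.09, 0.72 ± 0.10 and 1.80 ± 0.07) and the siRNA (2.54 ± 0.10, 2.30 ± 0.20, 1.19 ± 0.13 and 0.79 ± 0.10), and SESN3 with shD3#4 (2.11 ± 0.09) and the siRNA (1.44 ± 0.20). IGFBP1 was called higher in none of the 4.

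Of the 3 IGF2 mRNA-binding proteins, which bind IGF2 among other transcripts, IGF2BP3 rose with shD3#1 (1.36 ± 0.07, and 0.93 ± 0.04 deep) and was at -0.02 ± 0.06 with shD3#4 and 0.03 ± 0.11 with the siRNA. IGF2BP2 was called in none of the 4, at 0.32 ± 0.12, -0.45 ± 0.11, 0.07 ± 0.18 and 0.35 ± 0.06 (edgeR adjusted p from 0.000149 to 0.794). Other proteins that share the IGFBP-type N-terminal domain were listed as well. With shD3#1, 1 of 7 tested was called higher (CCN2, 1.20 ± 0.13) and 3 lower (CCN3 at -1.45 ± 0.20, CCN5 and KAZALD1). With the siRNA 3 of 8 were called higher (CCN2, CCN3 and CCN5), CCN4 had 4 and 5 counts in the controls and 6 to 16 in the knockdowns (1.15 ± 0.62, not called), and with shD3#4 1 of 7 lower (CCN1, -1.06 ± 0.10). In the deep libraries 4 of 8 were called lower. The rise of CCN2 was not seen there, with 262 to 282 cpm in the controls and 234 to 257 cpm in the knockdowns (not called). Its level in the first controls was far lower, at 6.14 to 7.53 cpm in sh1Control. The shares of all genes were 14.5% higher and 14.6% lower with shD3#1, 12.5% higher with the siRNA, 4.50% lower with shD3#4 and 14.1% lower in the deep set.

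The genes whose pattern came closest to that of IGFBP5 were sought over the 9 knockdown libraries of the first table, as the root mean square difference of log2 cpm, each gene relative to its own controls, among 14430 genes. TCN1, a vitamin B12-binding protein, was nearest at 0.213 log2 units, followed by UGT2B15 (0.548), CST1 (0.639), TNFSF15 (0.655) and AGTR1 (0.666). The log2 fold changes of TCN1 were 2.92 with shD3#1, 2.18 with shD3#4 and 1.48 with the siRNA. The deviations of IGFBP5 that were matched were 2.59 to 2.99 in shD3#1, 1.89 to 2.05 in shD3#4, and 1.87, 1.96 and 0.00 in siTHUMPD3. No other member was among the 5.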

How the data were processed

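RNA-seq gene counts were analysed as deposited by the authors, who aligned reads with STAR 2.7.10a to GRCh38.p14 and counted reads per gene with its gene-count mode. The submitters' processing notes also name Trimmomatic 0.40. The methods name RefSeq annotation, whereas the first table carries Ensembl IDs (61757 of 61806 matched to symbols with GENCODE) and the deep table carries gene symbols, and the strand setting is not given in the sources used here. Counts of 23 libraries were normalised by TMM within each table and tested per knockdown with edgeR 4.0.16 (quasi-likelihood, two-sided, filterByExpr, R 4.3.3), and Benjamini-Hochberg adjusted over all genes tested. SE is the size of the log2 fold change divided by the square root of F. Levels per length divide cpm by the Ensembl-canonical transcript length. Total counts ranged from 9854294 to 22101059 and, deep, from 27285889 to 59974740, and counting error is smallest in the deep libraries.

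The members and gene lists were chosen with earlier results of these data known. Of each list, genes called the same way in at least 2 first comparisons and the gene with the largest change in each were named, and CCN5, KAZALD1 and IGF2-AS were added after their values were seen. The test was tried on simulated counts first. DESeq2 1.42.0, its size factors, other filters and thresholds, a replicate block, 1 joint fit and each library left out served as alternatives. The labels call replicates biological but name no cultures, so p-values measure the spread between these samples. In bulk RNA, fewer cells of a type and less RNA per cell cannot be told apart. The methods give 3 replicates per condition, and 2 siControl libraries were analysed here. A marker list that holds an item withheld from this text is not reported here.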

Additional observations from a re-analysis of the deposited data

Results flagged for a closer look

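The 3 knockdowns of the first table differed in their effect on 8 members by edgeR's interaction test, adjusted over all genes. The adjusted p was 4.21e-08 for IGFBP6, 4.94e-08 for IGFBP7, 1.56e-07 for IGFBP4, 1.19e-06 for IGFBP1, 6.22e-06 for IGFBP3, 5.75e-05 for INSR, 0.0135 for IGFBP2 and 0.0422 for IGF2R. The same term was called, on the adjusted p alone, for 52.4% of all genes, so a difference between knockdowns was common. IGFBP5 is left out here because its shRNA values had led to the choice of genes.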

How the results depend on the processing

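Called members kept their direction under all alternatives run. The changes below concern thresholds, thin counts, values near 0 or, with the siRNA above all, dependence on single libraries. A log2 fold change of at least 1 left 0 members called higher and 1 lower in the deep libraries, 0 higher with shD3#1 and 1 with the siRNA, where a test against 1.5-fold (glmTreat) also left 1. Over all genes these settings called 2280 and 2751 with shD3#1, 718 and 682 with shD3#4, 2125 and 1670 with the siRNA, and 2878 and 3356 deep. IGF1R deep was -0.01 with a filter of 1 count, and with that filter 22 genes differed between sh4Control and sh1Control. With at least 10 counts in every sample IGFBP5 was not tested with the siRNA.

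Leaving out single libraries moved IGFBP1 with shD3#4 between -0.20 and 0.01, IGFBP2 between -0.01 and 0.15 and INSR between -0.04 and 0.14, and INSR with the siRNA between -0.02 and 0.31. Members called higher ranged from 0 to 1 with shD3#4 and from 1 (without siControl replicate 2) to 4 (without siTHUMPD3 replicate 3) with the siRNA. Genes differing between sh4Control and sh1Control ranged from 0 to 7, and between siControl and the shRNA controls from 847 (without siControl replicate 2) to 1552.

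Replicate numbers did not pair the samples (correlations of same-numbered deviations from -0.11 to 0.14), and in no comparison with 3 pairs did every sample correlate best with its own number. With the replicate block 4 members were called higher with the siRNA, IGFBP1 and IGFBP5 besides IGFBP7 and IGF2R, and siTHUMPD3 replicate 3, which has no control of its number, then dropped out. The block called 4772 genes with shD3#1, 2060 with shD3#4, 4270 with the siRNA and 5297 deep, against 4785, 2062, 3740 and 5461 without it.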
